A study of Sus scrofa with 24 samples.

Results

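The genes of de novo fatty acid synthesis and desaturation were followed in cultured preadipocytes from 2 fat depots of the pig. The 10 genes were listed by symbol: ACLY, ACACA, ACACB, FASN, SCD, ELOVL5, ELOVL6, FADS1, FADS2 and ME1. Their pig Ensembl IDs were looked up in a name table and matched to the 25462 rows of the expression table, and 9 of the 10 had a row. All 9 passed the filter on low values described below. ACACB was not analysed here.

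De novo synthesis builds palmitate from acetyl-CoA in the cytosol. ATP citrate lyase (ACLY) releases acetyl-CoA from citrate, malic enzyme (ME1) supplies NADPH, acetyl-CoA carboxylase (ACACA, ACACB) makes malonyl-CoA, and fatty acid synthase (FASN) joins the carbon units. The elongases ELOVL6 and ELOVL5 then lengthen the chain. Stearoyl-CoA desaturase (SCD) puts the first double bond into saturated chains, whereas FADS2 and FADS1 act mainly on polyunsaturated chains. In fat cells the pathway responds to insulin, in part through the transcription factor SREBF1.

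The cells came from 6-day-old Yorkshire piglets. Per the study's methods 3 piglets were used, and the cells were taken from the subcutaneous back fat (BF) and from the longissimus dorsi muscle as a source of intramuscular fat (IMF). Both depots were digested with collagenase and grown as primary cultures, and each was sampled on days 0, 2, 4 and 8 of adipogenic culture with 3 libraries per group, which gave 8 groups and 24 libraries. The groups are BF-0d, BF-2d, BF-4d, BF-8d, IMF-0d, IMF-2d, IMF-4d and IMF-8d. No group had a genetic change. Day 0 was the preadipocyte before induction. Both depots then had medium with IBMX, dexamethasone and insulin up to day 2, medium with insulin alone up to day 4 and growth medium up to day 8, so day and medium cannot be told apart. The labels do not say which animal or culture a replicate came from, and the p-values therefore measure only the spread between these libraries.

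Expression was given as FPKM, fragments scaled by the length of the transcript and by all fragments mapped in the library, which allows levels to be compared between genes of different length. FPKM keep no read counts, so the depth of the libraries is unknown. A library's FPKM summed to between 307967 and 385768, and 9985 to 10858 genes reached 1 FPKM. The library of BF-2d replicate 3 stood apart from the other 2 of its group on the first principal component of all genes. Its score was -17.2 against 26.5 and 27.2. For pathway genes and regulators, fold changes below that use BF-2d and passed either limit of the test are given with and without this library. Those of the marker genes are given with all libraries only, so their dependence on this library is not shown. In BF-8d replicate 2, FADS1, FADS2 and ELOVL6 were each at the lowest value of all 24 libraries.

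The labelled cell types were checked against marker genes. Of the adipocyte markers, adiponectin (ADIPOQ), perilipin 1 (PLIN1) and leptin (LEP) did not exceed 0.230, 0.0773 and 0.0313 FPKM in any library, so these 3 were at or near 0 on every day. Of the other 5, PPARG reached 5.75, FABP4 5.996, CEBPA 10.03 and CIDEC 1.15 FPKM in their highest libraries. The summed level of all 8 adipocyte markers was 9.16 to 10.9 FPKM in BF-0d and 281 to 622 in BF-8d, against 2.79 to 3.67 in IMF-0d and 97.2 to 143 in IMF-8d. Lipoprotein lipase (LPL) read 276 to 611 FPKM in BF-8d and 93.7 to 141 in IMF-8d, most of the sum on that day, but only 1.58 to 2.76 in BF-0d and 0.822 to 1.18 in IMF-0d. From day 0 to 8, 1 of the 5 tested was called higher in BF, LPL, and 1 lower, PPARG at -1.04 (SE 0.295, adjusted p = 0.0061). Of all genes, 6.28% were higher and 7.39% lower. In IMF LPL alone was called, as higher, where 4.56% of all genes were higher and 4.49% lower. Within BF, 2 of the 5 were called higher and 1 lower from day 0 to 2 (2.71% and 3.87% of all genes). From day 2 to 4 the counts were 1 and 1 (2.01% and 1.34%), and from day 4 to 8 they were 1 and 0 (1.78% and 1.14%). The lower ones were FABP4 from day 0 to 2 at -1.15 and CEBPA from day 2 to 4 at -1.19. Between depots, 2, 3, 1 and 1 of the 5 were called lower in IMF on days 0, 2, 4 and 8, and 0 higher. The shares of all genes called lower were 0.713%, 2.02%, 4.72% and 2.65%. The stromal genes COL1A1, DCN and PDGFRA were high everywhere, with sums of 6350 to 7178 FPKM in BF-0d, 1392 to 1662 in BF-8d, 6777 to 7298 in IMF-0d and 2965 to 3415 in IMF-8d. The 6 myogenic markers summed to 4.50 to 4.88 FPKM in BF-0d, 0.0323 to 0.0548 in BF-4d and 0.0480 to 0.0885 in BF-8d, against 29.6 to 45.3 in IMF-0d, 10.007 to 13.2 in IMF-4d and 1.27 to 2.22 in IMF-8d. Nearly all of that sum in IMF was desmin (DES), while MYF5, MYOD1 and MYF6 were at 0 in every library. Of the 3 endothelial markers with a row, CDH5 and KDR did not exceed 0.0884 and 0.101 FPKM, and PECAM1 read 0.888 to 5.13. PECAM1 was called lower in BF on day 2 and on day 8 than on day 0, at -1.13 and -1.12. Of the 4 immune markers, PTPRC and CSF1R did not exceed 0.00835 and 0.0581 FPKM, CD68 read 0.609 to 2.47 and CD14 2.10 to 17.1. These marker sums moved with the day or depot, as several genes below did, and their part in those results was not tested. In bulk libraries fewer cells of a type and less RNA per cell cannot be told apart.

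The 9 genes covered a range of levels. ACLY, FASN and SCD were the most abundant, with median libraries at 43.9, 46.2 and 39.0 FPKM. FADS2 had a median of 36.4, ELOVL5 of 21.8, FADS1 of 20.1, ME1 of 12.9 and ACACA of 10.5 FPKM. ELOVL6 was lowest at 3.99 FPKM. Summed, the 9 genes held 136 to 336 FPKM, or 0.0401 to 0.0971% of a library's total. The sum was 207 ± 4.38 in BF-0d, 292 ± 36.0 in BF-2d, 212 ± 40.7 in BF-4d and 146 ± 9.58 in BF-8d (SD, n = 3). In IMF cells it was 319 ± 8.15 on day 0, 289 ± 6.24 on day 2, 329 ± 7.04 on day 4 and 182 ± 13.0 on day 8 (SD, n = 3). In both depots the sum was lowest on day 8.

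**Figure D1:**
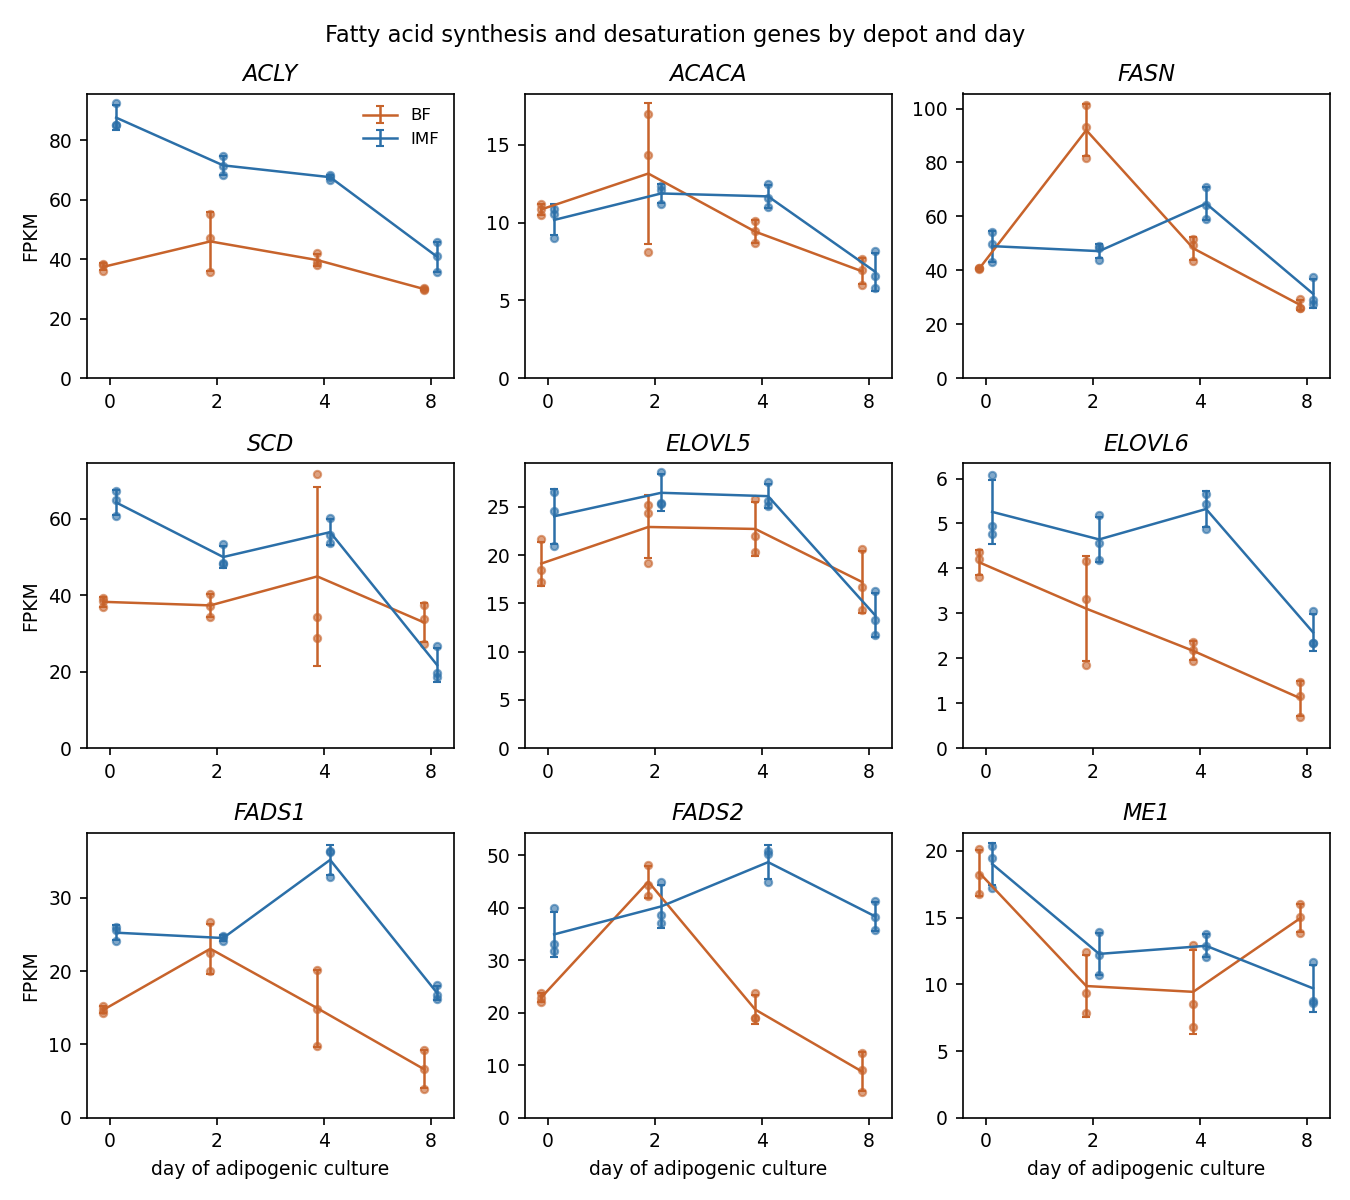
FPKM of the 9 genes (y axis of each panel, starting at 0) by day of adipogenic culture (x axis, days spaced evenly) in BF (orange) and IMF (blue) cells. Points are libraries, lines join group means, and bars are the SD of 3 libraries. FASN and FADS2 were highest in BF on day 2, and FADS2 in IMF stayed between 31.8 and 50.9 FPKM while in BF it reached 4.92 to 12.4 FPKM on day 8.

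Changes were tested with limma on log2(FPKM + 1) over all 16135 genes whose FPKM summed to more than 1, and a gene was called where its adjusted p was under 0.01 and its level differed by 1 or more on the log2 scale in either direction. Fold changes are on that scale and understate the change of low genes. Between days 0 and 2 in BF cells, 1 of the 9 genes was called higher and 0 lower, against 2.71% and 3.87% of all tested genes. From day 2 to 4 in BF, 1 gene was lower and 0 higher, with 1.34% and 2.01% of all genes. From day 4 to 8, 2 were lower and 0 higher, against 1.14% and 1.78%. Over the whole course in BF, 3 of 9 were lower on day 8 than on day 0 and 0 higher, where 7.39% of all genes were lower and 6.28% higher. With median ratio scaling the balance of all genes moved to 381 higher and 126 lower from day 4 to 8, from 288 and 184, and to 1263 higher and 892 lower from day 0 to 8, from 1014 and 1192. The median log2 fold change over that span was -0.57 for the 9 genes and -0.06 for all tested genes.

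In IMF cells the calls came late. From day 0 to 2, 0 of 9 were called by limma (0.328% of all genes higher and 0.459% lower), with 2 genes at an unadjusted p under 0.05. From day 2 to 4 the count was again 0 with limma, with 2 genes at an unadjusted p under 0.05, while 0.031% of all genes were higher and 0.0062% lower. Between days 4 and 8, 3 of 9 were lower and 0 higher, against 3.08% and 4.16% of all genes. All 9 had a negative fold change over this interval, with a median of -0.83 against -0.07 for all tested genes. On day 8 against day 0, 2 were lower and 0 higher, where 4.49% of all genes were lower and 4.56% higher, and the medians were -0.77 and -0.05. With median ratio scaling the calls over all genes from day 4 to 8 were 817 higher and 356 lower, against 672 and 497, and those from day 0 to 8 were 834 and 555, against 735 and 724. Comparisons that use the same group, such as day 0 in the first interval and in the whole course, share its libraries.

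Between the depots, 1 of 9 genes was higher in IMF on day 0 and 0 lower (1.87% and 0.713% of all genes). On day 2 limma called 0 (2.71% of all genes higher in IMF and 2.02% lower), with 3 genes at an unadjusted p under 0.05. On day 4, 2 were higher in IMF and 0 lower, against 6.6% and 4.72%, and all 9 had a positive difference with a median of 0.45 against 0.07. On day 8, 2 were higher and 0 lower, against 4.31% and 2.65%. The balance of all genes depended on the scaling. With median ratio scaling it turned from 438 higher in IMF and 326 lower to 326 and 427 on day 2, from 1065 and 761 to 824 and 883 on day 4, and from 696 and 427 to 542 and 577 on day 8, and with quantile normalization it moved from 302 and 115 to 256 and 155 on day 0. Tested as an interaction, the change differed between depots for 1 gene from day 0 to 2 (2.45% of all genes, either direction), 2 genes from day 2 to 4 (3.06%), 1 gene from day 4 to 8 (6.39%) and 2 genes from day 0 to 8 (4.98%).

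**Figure D2:**
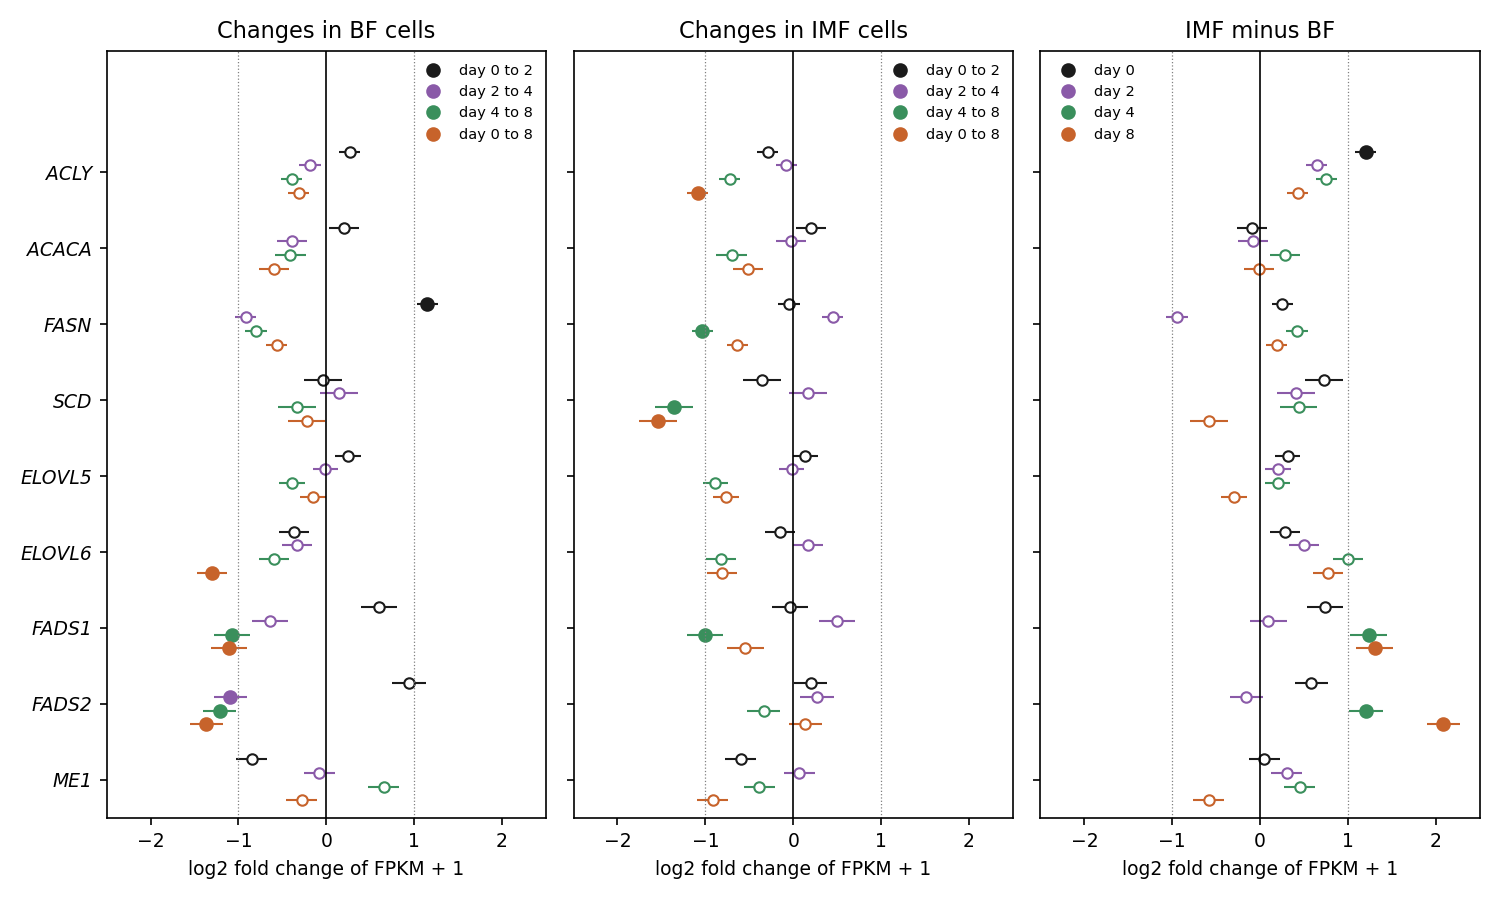
Log2 fold change of FPKM + 1 (x axis) with its standard error (bars) for each of the 9 genes (rows) in BF cells, in IMF cells and between the depots. Filled points passed the test, and dotted lines mark a log2 fold change of 1 in either direction. The filled points lie to the left in both panels of change apart from FASN at 1.15 in BF from day 0 to 2, and to the right in the panel of IMF minus BF.

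Upstream sequence is shown for the 3 genes called in a pairwise comparison whose annotated start lay more than 100 bases before the first coding base, since those windows lie outside the transcript. Each window is the 250 bases before the RefSeq gene start in Sscrofa11.1, the build of the expression table, printed 5′ to 3′ on the gene's strand. Capitals mark the CCAAT box (letters CCAAT) and the GC box (letters GGGCGG) on either strand, the binding letters of NF-Y and Sp1. ACLY (chromosome 12, plus strand) has the window chr12:20796428-20796677, SCD (chromosome 14, plus strand) has chr14:111461310-111461559, and ELOVL6 (chromosome 8, plus strand) has chr8:112038420-112038669.
ACLY: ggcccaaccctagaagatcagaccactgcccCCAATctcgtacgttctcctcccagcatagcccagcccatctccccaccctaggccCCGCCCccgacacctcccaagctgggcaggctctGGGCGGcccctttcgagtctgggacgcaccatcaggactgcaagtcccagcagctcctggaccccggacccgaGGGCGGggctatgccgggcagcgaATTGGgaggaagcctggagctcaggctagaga
SCD: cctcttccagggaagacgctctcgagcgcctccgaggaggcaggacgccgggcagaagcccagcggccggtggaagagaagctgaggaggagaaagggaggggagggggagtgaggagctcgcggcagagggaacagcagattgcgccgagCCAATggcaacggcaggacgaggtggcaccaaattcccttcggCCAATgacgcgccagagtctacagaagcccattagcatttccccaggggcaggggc
ELOVL6: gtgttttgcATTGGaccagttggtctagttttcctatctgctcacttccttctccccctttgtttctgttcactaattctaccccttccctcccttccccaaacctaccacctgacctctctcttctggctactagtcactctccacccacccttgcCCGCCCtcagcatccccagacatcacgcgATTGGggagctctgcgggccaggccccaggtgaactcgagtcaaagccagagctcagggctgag
In ACLY a CCAAT box lay 32 to 28 and another 219 to 215 bases before the start, with 3 GC boxes. The SCD boxes lay 56 to 52 and 99 to 95 bases before the start, with 0 GC boxes. ELOVL6 held CCAAT boxes 64 to 60 and 241 to 237 bases before its start and 1 GC box. Of the windows of all 10 listed genes, 5 held a CCAAT box and 7 a GC box, where 31.9% and 45.9% of 19556 protein-coding genes had them. The sterol response letters TCACNCCAC were in 0 of the 10 windows and in 0.8% of all, and the E-box CACGTG was in 1 of the 10 and in 6.39% of all. These are matches of letters only.

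ACLY (ENSSSCG00000017421, Sscrofa11.1 chromosome 12, 20796678 to 20841301, plus strand) supplies the acetyl-CoA of the pathway. It read 36.1, 38.0 and 38.3 FPKM in BF-0d and 92.6, 85.0 and 85.2 in IMF-0d. The groups did not overlap, with IMF higher by 1.20 on the log2 scale (SE 0.120, adjusted p = 4.79e-07). DES was also higher in IMF-0d, by 2.72 (SE 0.292, adjusted p = 1.26e-06), and its part in the ACLY difference was not tested.

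Over the course in IMF cells ACLY read 68.5, 71.5 and 74.8 FPKM on day 2, 67.8, 68.2 and 66.8 on day 4, and 35.6, 45.8 and 41.2 on day 8. All 3 libraries of day 8 were below every earlier IMF library. Against day 0 it fell by 1.09 (SE 0.120, adjusted p = 6.85e-07), a call lost at -0.99 without IMF-8d replicate 1 and at -0.94 with median ratio scaling. DES gave -3.82 over the same span (SE 0.292, adjusted p = 6.02e-09), and its part in the ACLY change was not tested. In BF cells the values were 47.2, 35.6 and 55.2 on day 2, 38.1, 39.1 and 42.1 on day 4, and 29.6, 30.4 and 30.1 on day 8. None of the BF changes was called, and the whole course gave -0.31 (SE 0.120, adjusted p = 0.0371). On days 2, 4 and 8 the IMF minus BF difference was 0.65, 0.75 and 0.43, each at an adjusted p under 0.01 but short of the fold limit, and that of day 2 was 0.79 without BF-2d replicate 3. In the order of its 8 group means the 3 highest were IMF on days 0, 2 and 4, and those neighbours did not overlap.

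ME1 (ENSSSCG00000004454, chromosome 1, 82799878 to 82989895, plus strand), which makes NADPH from malate, was the one gene with a higher mean in BF on day 8 than on day 4. In BF cells it read 18.2, 16.8 and 20.2 FPKM on day 0, 9.33, 7.86 and 12.4 on day 2, 6.84, 8.52 and 13.0 on day 4, and 13.9, 16.0 and 15.02 on day 8. In IMF cells it read 20.4, 19.4 and 17.3 on day 0, 13.9, 12.2 and 10.7 on day 2, 13.7, 12.9 and 12.03 on day 4, and 8.63, 11.7 and 8.77 on day 8. BF-8d lay above BF-4d in every library, whereas IMF-8d lay below IMF-4d. The change from day 4 to 8 was 0.65 in BF (SE 0.176, adjusted p = 0.0136) and -0.39 in IMF (SE 0.176, adjusted p = 0.0951), and neither was called. Their difference was called at -1.04 (SE 0.249, adjusted p = 0.00616), but 9 of 12 fits with a library left out lost it (-0.85 without BF-4d replicate 1, adjusted p = 0.0188) and so did the fit of the compared groups alone. The day 0 to 2 change in BF was -0.85 (SE 0.176, adjusted p = 0.00101), which became -1.01 and was called without BF-2d replicate 3.

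ACACA (ENSSSCG00000017694, chromosome 12, 38580916 to 38875067, minus strand), the cytosolic acetyl-CoA carboxylase and the step that commits carbon to synthesis, was not called in any of the 12 pairwise comparisons or 4 interactions. It read 10.8, 11.2 and 10.5 FPKM in BF-0d, 16.9, 8.13 and 14.3 in BF-2d, 9.43, 10.1 and 8.68 in BF-4d, and 7.66, 5.99 and 6.95 in BF-8d. In IMF it was 9.04 to 10.9 on day 0, 11.2 to 12.4 on day 2, 11.0 to 12.4 on day 4 and 5.80 to 8.19 on day 8. Both depots were lowest on day 8, below every library of the other days. From day 4 to 8 the log2 change was -0.41 in BF (SE 0.172, adjusted p = 0.104) and -0.70 in IMF (SE 0.172, adjusted p = 0.0035). The depot difference ran from -0.09 to 0.28 over the 4 days.

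FASN (ENSSSCG00000029944, chromosome 12, 922405 to 937560, plus strand) makes palmitate from acetyl-CoA and malonyl-CoA, and its course differed between the depots. In BF cells it read 40.5, 40.7 and 40.9 FPKM on day 0 and 101, 81.8 and 93.0 on day 2. The BF-2d libraries were the 3 highest of all 24, and the rise was 1.15 on the log2 scale (SE 0.121, adjusted p = 9.6e-07), or 1.14 without BF-2d replicate 3. On day 4 BF cells read 43.4, 49.4 and 51.7, and on day 8 they read 29.3, 26.1 and 26.2. These steps of -0.92 (SE 0.121, adjusted p = 4.41e-05) and -0.80 (adjusted p = 0.000154) passed the p limit and not the fold limit, and the first was -0.91 without BF-2d replicate 3.

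In IMF cells FASN read 49.7, 43.0 and 54.3 FPKM on day 0 and 49.0, 44.1 and 48.4 on day 2, which overlapped. The change was -0.05 (SE 0.121, adjusted p = 0.893), and the difference between depots in the day 0 to 2 change was -1.20 (SE 0.172, adjusted p = 0.000357), or -1.19 without BF-2d replicate 3. On day 4 IMF cells read 64.3, 71.0 and 59.1, above every IMF library of day 0 or 2, with a step of 0.45 that was not called (SE 0.121, adjusted p = 0.145). The interaction from day 2 to 4 was 1.36 (SE 0.172, adjusted p = 0.00011), or 1.35 without BF-2d replicate 3. On day 8 IMF cells read 27.5, 29.2 and 37.4. The fall by 1.03 from day 4 (SE 0.121, adjusted p = 2.24e-06) was just past the fold limit and became -0.86 with median ratio scaling, -0.97 without IMF-4d replicate 2, -0.95 without IMF-8d replicate 1 and -0.99 without IMF-8d replicate 2. On day 2 IMF was lower than BF by a log2 difference of -0.95 (SE 0.121, adjusted p = 1.61e-05) in every library, short of the fold limit, and it was called at -1.11 with median ratio scaling and at -1.03 without BF-2d replicate 2, while without BF-2d replicate 3 it was -0.94. In the order of group means BF-2d stood first and IMF-4d second without overlap.

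ELOVL6 (ENSSSCG00000036236, chromosome 8, 112038670 to 112190079, plus strand) lengthens palmitate to stearate. In BF cells it read 4.37, 3.82 and 4.22 FPKM on day 0, 3.31, 1.85 and 4.16 on day 2, 2.18, 2.37 and 1.94 on day 4, and 1.46, 0.700 and 1.16 on day 8. No single interval in BF was called, with steps of -0.36, -0.33 and -0.60. The first 2 were -0.55 and -0.15 without BF-2d replicate 3. Over the whole course it fell by 1.30 (SE 0.170, adjusted p = 2.86e-06), and this call held in every alternative run. In IMF cells it read 6.07, 4.95 and 4.76 on day 0, 4.19, 4.56 and 5.18 on day 2, 4.88, 5.44 and 5.65 on day 4, and 2.35, 3.04 and 2.34 on day 8. The IMF change from day 4 to 8 was -0.83 (SE 0.170, adjusted p = 0.000833), and with a pseudocount of 0.1, which shrinks the changes of low values less, it was called at -1.03. On day 4 all IMF libraries were above all BF libraries by a difference of 0.998 (SE 0.170, adjusted p = 8.65e-05), just under the fold limit. With the pseudocount of 0.1 the depot difference was called on day 4 at 1.26 and on day 8 at 1.19.

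ELOVL5 (ENSSSCG00000024149, chromosome 7, 46860768 to 46932945, minus strand), the elongase of polyunsaturated chains, varied least with ACACA, with a highest group mean 1.92 times its lowest. It read 17.2 to 21.7 FPKM in BF-0d, 19.2 to 25.2 in BF-2d, 20.3 to 25.8 in BF-4d and 14.3 to 20.6 in BF-8d. In IMF it read 20.9 to 26.6 on day 0, 25.3 to 28.7 on day 2, 25.1 to 27.5 on day 4 and 11.8 to 16.3 on day 8. Each of the 7 pairs of neighbours in the order of its group means overlapped. The IMF change from day 4 to 8 was -0.89 (SE 0.145, adjusted p = 9.85e-05), not called, and it reached -1.01 without IMF-8d replicate 2. The same interval in BF gave -0.39 (SE 0.145, adjusted p = 0.0665).

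SCD (ENSSSCG00000010554, chromosome 14, 111461560 to 111478033, plus strand), the desaturase that makes oleate from stearate, fell late in IMF cells. These read 64.8, 67.2 and 60.6 FPKM on day 0, 48.4, 48.1 and 53.4 on day 2, 55.7, 53.5 and 60.1 on day 4, and 19.7, 26.8 and 18.6 on day 8. The 3 libraries of IMF-8d held the 3 lowest SCD values of all 24. Against day 4 it fell by 1.36 on the log2 scale (SE 0.216, adjusted p = 7.07e-05), and against day 0 it fell by 1.54 (SE 0.216, adjusted p = 1.23e-05). Both calls held in every alternative run. Its upstream window is the second of those printed above.

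In BF cells SCD read 38.6, 39.4 and 36.8 FPKM on day 0, 40.3, 34.3 and 37.3 on day 2, 34.2, 28.7 and 71.7 on day 4, and 37.4, 27.3 and 33.7 on day 8. Apart from BF-4d replicate 3, at 71.7 the highest SCD value of all 24 libraries, the BF libraries stayed between 27.3 and 40.3 FPKM. That library also held the highest level of the monocyte marker CD14, 17.1 FPKM against 2.10 and 2.87 in its group, and of the other immune markers CD68 read 1.59 FPKM there and CSF1R 0.0563, while PTPRC, which marks all leukocytes, stayed at or below 0.00835 FPKM in every library. None of the BF changes was called, and day 8 against day 0 gave -0.23 (SE 0.216, adjusted p = 0.415). The change from day 0 to 8 differed between depots by -1.31 (SE 0.305, adjusted p = 0.00496), a call kept when a library was left out in 3 of 12 such fits, with adjusted p-values up to 0.017 in the others. The difference in the change from day 4 to 8 was -1.02 (SE 0.305, adjusted p = 0.0247), not called, and was called at -1.41 without BF-4d replicate 3.

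FADS2 (ENSSSCG00000013072, chromosome 2, 9633941 to 9666666, minus strand), the delta-6 desaturase that begins the conversion of linoleate and alpha-linolenate to longer polyunsaturated acids, had the widest range between groups, with the highest mean 5.54 times the lowest. In BF cells it read 22.1, 22.9 and 23.8 FPKM on day 0, 44.4, 42.3 and 48.2 on day 2, 19.0, 19.1 and 23.8 on day 4, and 12.4, 4.92 and 9.06 on day 8. BF-2d stood above every other BF library and BF-8d below every one. The rise to day 2 was 0.94 (SE 0.189, adjusted p = 0.000772), short of the fold limit, called at 1.04 with median ratio scaling and at 0.89, not called, without BF-2d replicate 3. It then fell by 1.09 to day 4 (SE 0.189, adjusted p = 0.00046), or -1.04 without BF-2d replicate 3, and by 1.21 to day 8 (SE 0.189, adjusted p = 0.000192). The last step became -0.89 without BF-8d replicate 2, and neither step passed when only the compared groups were fitted (adjusted p = 0.127 and 0.081). From day 0 to day 8 the change was -1.37 (SE 0.189, adjusted p = 5.68e-06), a call that held in every alternative run.

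FADS2 did not follow that course in IMF cells, which read 33.2, 31.8 and 39.9 FPKM on day 0, 37.2, 45.0 and 38.6 on day 2, 50.2, 50.9 and 45.0 on day 4, and 38.2, 35.7 and 41.2 on day 8. The groups of days 0, 2 and 8 overlapped, and none of the IMF changes was called. The change from day 4 to 8 was -0.34 (SE 0.189, adjusted p = 0.177) and that from day 0 to 8 was 0.14 (SE 0.189, adjusted p = 0.62). The depot difference in the change was called from day 2 to 4 at 1.36 (SE 0.267, adjusted p = 0.00281), at 1.31 without BF-2d replicate 3, and lost without IMF-4d replicate 2 at 1.33 with an adjusted p of 0.01. From day 0 to 8 it was 1.503 (SE 0.267, adjusted p = 0.000617). IMF exceeded BF by 1.21 on day 4 (SE 0.189, adjusted p = 3.59e-05) and by 2.08 on day 8 (SE 0.189, adjusted p = 8.01e-08), the latter a ratio of means of 38.4 ± 2.77 to 8.79 ± 3.74 FPKM (SD, n = 3). Both of these calls held in every alternative run. On the same days DES was higher in IMF by 3.61 and 1.33, and the endothelial gene PECAM1 by 0.90, not called, and 1.03, called. The stromal sum was 5723 to 5998 FPKM in IMF-4d against 1371 to 2027 in BF-4d. On day 8 it was 2965 to 3415 in IMF and 1392 to 1662 in BF. Of the 3 stromal genes, 2 were called higher in IMF and 1 lower on day 4 (6.6% and 4.72% of all genes). On day 8, 1 was higher and 0 lower (4.31% and 2.65%). The adipocyte sum was 11.4 to 14.3 FPKM in IMF-4d against 182 to 318 in BF-4d. On day 8 it was 97.2 to 143 in IMF and 281 to 622 in BF. The part of these markers in the difference was not tested. On day 0 the difference was 0.58 (SE 0.189, adjusted p = 0.0447), and on day 2 it was -0.16 (adjusted p = 0.584).

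FADS1 (ENSSSCG00000024015, chromosome 2, 9735425 to 9747405, plus strand), the delta-5 desaturase that acts later in the same route, lies next to FADS2 in the opposite orientation, with 68758 bases and 0 other annotated protein-coding genes between them. In BF cells it read 14.3, 15.2 and 14.6 FPKM on day 0, 22.5, 19.96 and 26.7 on day 2, 9.73, 14.9 and 20.2 on day 4, and 9.19, 3.98 and 6.65 on day 8. The BF-4d libraries were spread widely, and BF-8d was below every other BF library. The last step, from day 4, was -1.07 (SE 0.206, adjusted p = 0.00124), and the whole course gave -1.11 (SE 0.206, adjusted p = 0.000166). Without BF-8d replicate 2 these became -0.80 and -0.83, without BF-4d replicate 3 the first became -0.84, and with median ratio scaling they were -0.96 and -0.93, none of which was called. With quantile normalization both were -0.99, and fitted on the compared groups alone the first had an adjusted p of 0.121.

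In IMF cells FADS1 read 24.03, 25.6 and 26.1 FPKM on day 0, 24.04, 24.7 and 24.8 on day 2, 36.3, 36.3 and 32.8 on day 4, and 16.8, 16.2 and 18.0 on day 8. IMF-4d was above and IMF-8d below every other IMF library. The fall by 1.01 from day 4 to 8 (SE 0.206, adjusted p = 0.000826) sat at the fold limit. It was lost at -0.84 with median ratio scaling, at -0.98 with quantile normalization, at -0.98 without IMF-4d replicate 1 or 2, and at -0.996 and -0.97 without IMF-8d replicate 1 or 2. IMF exceeded BF by 1.23 on day 4 (SE 0.206, adjusted p = 7.19e-05), or 0.98 without BF-4d replicate 1, and by 1.30 on day 8 (SE 0.206, adjusted p = 6.59e-05). The marker differences given with FADS2 stand beside these as well. The interaction from day 4 to 8 was 0.07 (SE 0.292, adjusted p = 0.91), where FADS1 had a negative step in both depots. From day 2 to 4 it was 1.14 (SE 0.292, adjusted p = 0.0145), called at 1.37 without BF-4d replicate 3 and not called at 1.03 without BF-2d replicate 3.

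FADS2 and SCD, which serve polyunsaturated and monounsaturated acids, took opposite places in the depots on day 8. Their ratio in each library, a measure chosen after its values were seen and given with no test, was 0.573 to 0.648 in BF-0d, 1.10 to 1.29 in BF-2d, 0.331 to 0.665 in BF-4d and 0.1801 to 0.331 in BF-8d. In IMF it was 0.472 to 0.658 on day 0, 0.723 to 0.935 on day 2, 0.749 to 0.951 on day 4 and 1.33 to 2.22 on day 8. On day 8 the means were 0.260 ± 0.0759 in BF and 1.83 ± 0.454 in IMF (SD, n = 3), whereas on day 0 they were 0.601 ± 0.0412 and 0.548 ± 0.0975. FADS2 thus stood above SCD in every library of BF-2d and IMF-8d and below it in every library of the other 6 groups.

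**Figure D3:**
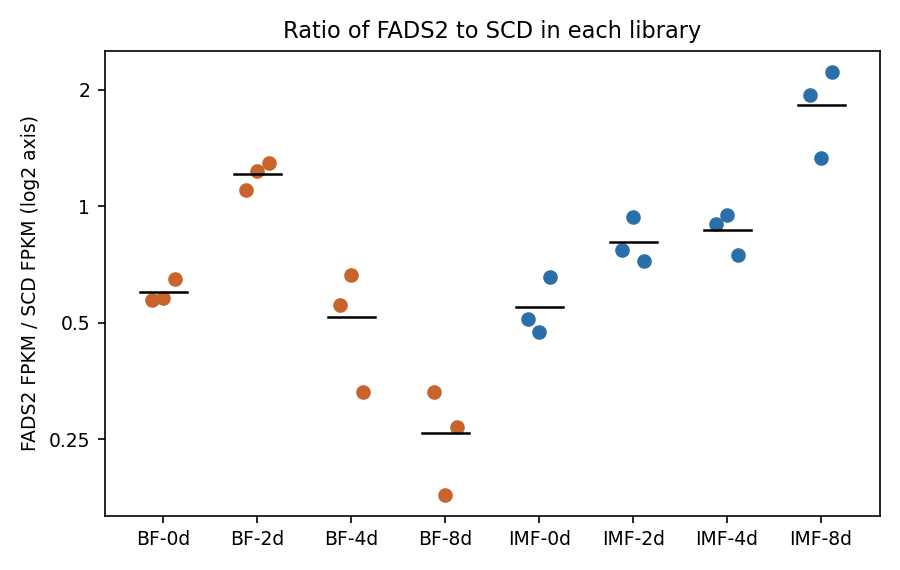
Ratio of FADS2 FPKM to SCD FPKM in each of the 24 libraries (points, y axis on a log2 scale) by depot and day (x axis), BF in orange and IMF in blue, with the group mean as a bar. The ratio exceeds 1 in BF-2d and IMF-8d, at 1.10 to 1.29 and 1.33 to 2.22, and is lowest in BF-8d at 0.1801 to 0.331.

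The group means of the 9 genes were compared over the 8 groups as a description, since the groups share their depot, day and medium. Pearson's r was highest between FADS1 and FADS2 at 0.94, then SCD and ELOVL5 at 0.90, ELOVL6 and FADS1 at 0.88, and ACACA and FASN at 0.86. It was 0.28 between SCD and FADS2 and lowest between FADS2 and ME1 at -0.26. Among 9479 other named genes, the closest in pattern to ACLY were CIT, NDC80 and BUB1, with r of 0.998, 0.997 and 0.996. NDC80 and BUB1 act at the kinetochore of dividing cells, and a link of ACLY to cell division was not tested. The closest to FASN was PMPCA (0.985), to SCD PUS7 (0.982), to FADS2 HOXD9 (0.991) and to FADS1 GGA2 (0.983). For ELOVL6 it was WDR62 (0.991), for ME1 CD86 (0.986), for ACACA RIOX2 (0.970) and for ELOVL5 WDSUB1 (0.978).

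Other genes of the pathway were counted from fixed lists on day 8 against day 0 and between depots on days 4 and 8. Of 5 genes that supply acetyl-CoA and citrate, 1 was lower in BF on day 8 (7.39% of all tested genes) and 1 was higher in IMF than BF on day 4 (6.6%). Limma called 0 in IMF on day 8 against day 0 (3 at an unadjusted p under 0.05). It also called 0 between depots on day 8 (4 at an unadjusted p under 0.05). The list's medians were -0.32 in BF and -0.19 in IMF over time, beside -0.06 and -0.05 for all tested genes. ACSS2, which makes acetyl-CoA from acetate, read 8.19, 7.49 and 8.02 FPKM in BF-0d and 3.45, 2.13 and 2.62 in BF-8d, a change of -1.27 (SE 0.172, adjusted p = 4.6e-06). On day 4 it was 12.7 to 13.8 in IMF and 3.37 to 4.08 in BF. That depot difference was 1.57 (SE 0.172, adjusted p = 5.41e-07). From day 4 to 8 in IMF, 2 of the 5 were called lower and 0 higher, against 3.08% and 4.16% of all genes. Pyruvate carboxylase (PC) fell by 1.25 (SE 0.142, adjusted p = 1.47e-06) and ACSS2 by 1.01. The ACSS2 call was lost with median ratio scaling, with quantile normalization or without IMF-4d replicate 2.

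Among the 4 other NADPH genes, only IDH1, the cytosolic isocitrate dehydrogenase, was called in these comparisons, lower on day 8 in BF and IMF (7.39% and 4.49% of all tested genes) and higher in IMF than BF on days 4 and 8 (6.6% and 4.31%), and the list's medians were -0.35 in BF and -0.30 in IMF. IDH1 read 56.1, 60.2 and 64.0 FPKM in BF-0d and 11.4, 6.77 and 8.65 in BF-8d, a change of -2.64 (SE 0.208, adjusted p = 4.24e-09). In IMF it was 55.2 to 58.5 on day 0, 52.9 to 57.3 on day 4 and 20.5 to 23.98 on day 8, with -1.34 over the course (SE 0.208, adjusted p = 3.93e-05). BF cells were already at 12.4 to 16.0 on day 4, and the depot difference that day was 1.85 (SE 0.208, adjusted p = 7.72e-07). The difference in the change from day 0 to 8 was 1.31 (SE 0.294, adjusted p = 0.00392).

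The list of 10 other elongation genes went both ways, with 2 higher and 1 lower on day 8 than on day 0 in each depot, and medians of -0.17 in BF and -0.06 in IMF, against 6.28% higher and 7.39% lower in BF and 4.56% and 4.49% in IMF among all tested genes. Between depots, 1 was higher in IMF and 3 lower on day 4 (6.6% and 4.72% of all genes), and 0 were higher and 1 lower on day 8 (4.31% and 2.65%). HSD17B12, the ketoreductase of the elongation cycle, read 12.5, 12.04 and 12.9 FPKM in BF-0d, 42.9, 43.0 and 18.0 in BF-2d, and 24.8, 28.9 and 26.3 in BF-8d. Its rise in BF was 1.30 by day 2 (SE 0.200, adjusted p = 6.02e-05), or 1.70 without BF-2d replicate 3, and the call was lost when only the compared groups were fitted. By day 8 the rise was 1.04, a call lost without BF-8d replicate 2. In IMF it stayed at 10.1 to 13.5 up to day 4 and reached 29.6 to 32.6 on day 8, a rise of 1.41 (SE 0.200, adjusted p = 1.4e-05). ELOVL4, which makes very long chains, was 0.559 to 0.878 FPKM in BF-8d and 0.942 to 1.15 in IMF-8d, after 2.46 to 3.02 and 5.41 to 7.18 on day 0. It fell in both depots, by 1.14 in BF and by 1.82 in IMF. ELOVL3 was at or below 0.133 FPKM in IMF-0d and at 1.36 to 1.51 in IMF-8d, a rise of 1.20 (SE 0.214, adjusted p = 0.000171), and HACD4, a dehydratase of the cycle, went from 6.50 to 7.90 in BF-0d to 16.5 to 41.9 in BF-8d, a rise of 1.72 (SE 0.227, adjusted p = 3.19e-06). On day 4 IMF cells were lower than BF cells in HSD17B12 by a difference of -1.57 (SE 0.200, adjusted p = 3.44e-06), in ELOVL3 by -1.58 (SE 0.214, adjusted p = 7.55e-06) and in HACD4 by -1.15 (SE 0.227, adjusted p = 0.00037), the last lost without BF-4d replicate 3, and were higher in ELOVL4 by 1.91 (SE 0.170, adjusted p = 4.1e-08). HACD4 was also lower in IMF on day 8, by a difference of -2.12 (SE 0.227, adjusted p = 7.3e-07).

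Of 4 other desaturation genes, 2 were lower on day 8 in BF and 1 in IMF, against 7.39% and 4.49% of all tested genes, with medians of -0.98 and -0.30. Between depots, 1 was higher in IMF on day 4 and 1 on day 8 (6.6% and 4.31% of all genes) and 0 lower. Both calls were CYB5R3, and that of day 4, at 1.05, was lost with median ratio scaling, with only the compared groups and without BF-4d replicate 3. Cytochrome b5 (CYB5A) and its reductase (CYB5R3) pass electrons to the desaturases. CYB5R3 read 103, 112 and 115 FPKM in BF-0d and 39.6, 43.4 and 41.1 in BF-8d, a change of -1.39 (SE 0.179, adjusted p = 2.43e-06), while CYB5A gave -1.20 (SE 0.183, adjusted p = 1.83e-05). In IMF these genes gave -0.13 and -0.48 and were not called. CYB5R3 was higher in IMF on day 8 by 1.05 (SE 0.179, adjusted p = 0.000141), lost with median ratio scaling, with quantile normalization or without IMF-8d replicate 3. FADS3, a relative of FADS1 and FADS2, fell by 1.21 in IMF (SE 0.283, adjusted p = 0.0021), a call lost without IMF-0d replicate 3 or IMF-8d replicate 2. Of the 7 genes of mitochondrial fatty acid synthesis limma called 0 in either depot from day 0 to 8, with 3 in BF and 2 in IMF at an unadjusted p under 0.05, and CBR4 alone was called in any pairwise comparison, at -1.36 in IMF from day 4 to 8 (3.08% of all genes lower).

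**Figure D4:**
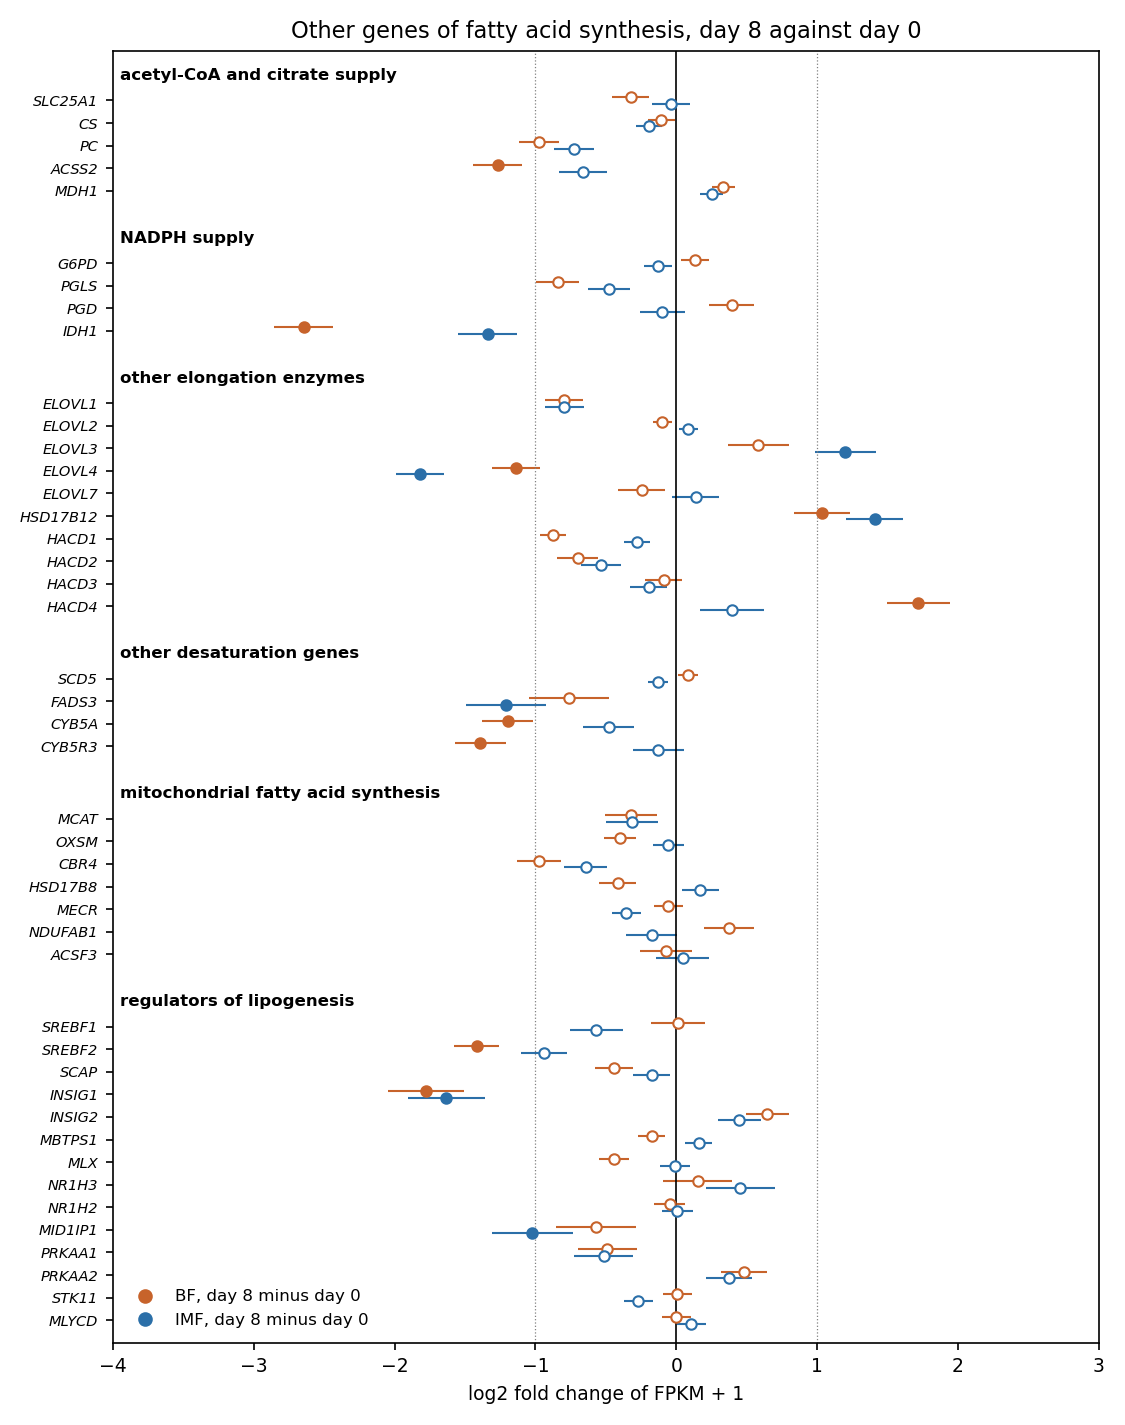
Log2 fold change of FPKM + 1 from day 0 to day 8 (x axis) with its standard error (bars) for the other genes of the pathway, grouped by list (rows), in BF (orange) and IMF (blue). Filled points passed the test, and IDH1 at -2.64 in BF and HACD4 at 1.72 in BF lie farthest to either side.

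Among the 14 tested regulators of lipogenesis, 2 were lower on day 8 in each depot and 0 higher, with medians of -0.11 in BF and -0.09 in IMF, where 7.39% of all tested genes were lower and 6.28% higher in BF and 4.49% and 4.56% in IMF. Between depots INSIG1 alone was called on day 4, higher in IMF by 1.51 (6.6% of all genes higher) and lost when only the compared groups were fitted, and limma called 0 on day 8, with 7 at an unadjusted p under 0.05. INSIG1, which holds the SREBF proteins in the endoplasmic reticulum, read 10.3, 12.1 and 11.7 FPKM in BF-0d and 2.72, 2.58 and 2.52 in BF-8d, a change of -1.78 (SE 0.272, adjusted p = 1.91e-05). In IMF it was 10.05 to 11.9 on day 0, 12.6 to 13.5 on day 4 and 2.72 to 2.84 on day 8, with -1.63 over the course (SE 0.272, adjusted p = 8.43e-05). SREBF2, the factor best known for sterol synthesis, was 36.5 to 40.2 FPKM in BF-0d and 13.3 to 14.7 in BF-8d, a change of -1.42 (SE 0.162, adjusted p = 5.52e-07). MID1IP1, an activator of acetyl-CoA carboxylase, was called in IMF at -1.02 (SE 0.285, adjusted p = 0.00762), and leaving out any of the 6 libraries lost the call. NR1H3, the liver X receptor alpha, was lower in IMF than BF on day 2 by a difference of -1.13 (SE 0.244, adjusted p = 0.00221), or -1.24 without BF-2d replicate 3, lost when 3 of the 6 libraries were left out in turn and when only the compared groups were fitted.

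SREBF1, the factor that drives this pathway in response to insulin, was not called in any comparison. It read 9.43, 11.7 and 12.3 FPKM in BF-0d, 15.3, 15.3 and 12.2 in BF-2d, 8.67, 9.57 and 17.6 in BF-4d, and 13.0, 8.95 and 12.1 in BF-8d. In IMF it was 13.4 to 16.0 on day 0, 9.92 to 11.7 on day 2, 12.5 to 16.0 on day 4 and 8.79 to 10.9 on day 8, a change over the course of -0.57 (SE 0.189, adjusted p = 0.0229). The FPKM cover all its transcripts, and the protein was not measured. MLXIPL and THRSP, which act on the pathway in liver and fat, did not exceed 0.0761 and 0.0889 FPKM in any library and did not pass the filter.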

How the data were processed

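RNA of 24 libraries was measured. The authors aligned paired reads with HISAT2 to Sscrofa11.1 and quantified genes with StringTie (version 1.3.4d per the submitters' processing notes), and the deposited values were FPKM, scaled by the authors for length and mapped fragments. Depth is not kept, so no counting interval is given. DESeq2, which the authors used, needs counts and was not used here.

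Values were tested as log2(FPKM + 1) with limma 3.58.1 in R 4.3.3 (8 group means, all 24 libraries, eBayes with trend and robust) on the 16135 of 25462 genes whose FPKM summed to more than 1. P-values were adjusted by Benjamini-Hochberg over all tested genes within a comparison. Interactions subtract the BF change from the IMF change. The 10 genes and the pathway lists were chosen with earlier results of these data known. Every gene of the 10 with a row is described. Of the other lists, up to 4 genes with the largest called change were named, with SREBF1, MLXIPL, INSIG1 and THRSP. Of 25462 rows, 14815 had a symbol in the name table. Alternatives were a pseudocount of 0.1, no filter, a mean FPKM filter of 1, median ratio scaling, quantile normalization, a fit without trend or robust weighting, the compared groups alone, a replicate block, and leaving out each library. Promoter windows were read from the RefSeq annotation of the same build.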

Additional observations from a re-analysis of the deposited data

Results flagged for a closer look

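In 6 cases the change over time differed between the depots by a test of the interaction, IMF minus BF. For FASN the difference was -1.20 from day 0 to 2 and 1.36 from day 2 to 4, with BF highest on day 2 and IMF on day 4. For FADS2 it was 1.36 from day 2 to 4 and 1.503 from day 0 to 8. The difference for SCD was -1.31 from day 0 to 8, and that for ME1 was -1.04 from day 4 to 8. All 6 are on the log2(FPKM + 1) scale, and 2 of the 6, those of SCD and ME1, were lost when most single libraries were left out.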

How the results depend on the processing

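Of 358 alternative fits of the 23 called values of the 9 genes, 314 kept the call, 44 lost it and 0 reversed its direction. The same settings were applied to the other pathway genes after seeing the data, and 558 of 599 fits of their 43 called values kept the call, 41 lost it and 0 reversed. With the compared groups alone, which leaves fewer residual degrees of freedom, the calls in the BF intervals dropped from 4 to 1, while over all genes they went from 1063, 541 and 472 in the 3 intervals to 237, 0 and 4. Median ratio scaling left 1 of 3 calls in the IMF intervals and 1 of 2 in IMF from day 0 to 8. Leaving out single libraries gave 2 to 5 calls in the BF intervals, 1 to 3 in the IMF intervals, 1 to 3 in IMF from day 0 to 8, 2 to 6 for the interactions over intervals and 1 to 2 for the interaction from day 0 to 8. The causes were not tested. Replicate numbers did not pair the libraries: deviations of 84 same-numbered pairs had a median correlation of 0.00136, with 9 pairs over 0.1, against -0.00113 for 168 others. The replicate block moved no count of calls past 1.5 times, with 4 calls in the BF intervals and 3 in the IMF intervals under it. FPKM do not keep depth and it was not used here, which limits what can be said of genes near 0.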
